A study of Vernicia fordii and Jatropha curcas with 4 samples.

Results

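Seeds of Jatropha curcas (physic nut, an oil tree of the spurge family) were represented by 2 of the 4 libraries of the series, one deposited column each, called library 7 and library 8 after the number in the column header. Per the labels the Jatropha samples were seeds at 29 days after pollination, in the early stage of oil accumulation, and at 37 days, in the fast stage, and their source is given as endosperm. RNA extracted from 3 seeds of 3-year-old farmland trees was mixed for each library, so there was 1 library per column, no spread between seeds and no test. Neither the labels nor the header says which number belongs to 29 and which to 37 days, and no paper was used here, so no difference below has a direction in time. The deposited values are RPKM (reads scaled by contig length and by the size of the library). They were summed over contigs that carry the same Arabidopsis locus code, which left 13319 loci, and 8024 of them, which reached 10 RPKM in library 7 or library 8, were compared. At that limit AT5G67220 entered with a highest value of 10.0 RPKM and AT5G06430 did not, with 9.99 RPKM.

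An oilseed first builds its tissues by cell division. It then fills storage cells with protein bodies and oil bodies, and it ends by acquiring tolerance to drying. Plastids make fatty acids from sugar, the endoplasmic reticulum joins them into triacylglycerol, and oleosins coat the oil bodies. In the spurge family the oil lies mostly in a persistent endosperm that surrounds the embryo, inside a hard seed coat. Gene functions below are those of the Arabidopsis gene behind the code and come from general knowledge, because the table gives codes without names.

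Library 8 lay below library 7 at most loci as deposited. Among loci with at least 1 RPKM in both libraries the median log2 ratio of library 8 to library 7 was -0.97. Dividing library 8 by this median ratio (0.512) removed the shared shift, and differences below are log2((library 8 + 1)/(library 7 + 1)) after this scaling unless they are said to be as deposited. After scaling 1259 loci (15.7%) exceeded library 7 by 2-fold or more in library 8, and 1894 (23.6%) fell short of it by that factor. As deposited, 597 (7.44%) were higher and 4320 (53.8%) lower. The lower share of the differing loci was thus 87.9% as deposited and 60.1% after scaling. The limit of 10 RPKM was applied to the deposited values, so it admitted loci high in library 7 more readily than loci high in scaled library 8. With a limit of 1 RPKM the lower share after scaling was 56.2%. The 597 loci higher as deposited were also higher after scaling, and the 1894 loci lower after scaling were also lower as deposited. Differences of at least 16-fold were about as frequent in both directions, at 162 loci higher and 158 lower in library 8. The median over the compared loci was -0.19 after scaling and -1.09 as deposited, and these are the background for the medians of the lists below. The shares of higher and lower loci given above are the background for the counts of the lists. A list whose members reached the limit in library 7 only, or in library 8 only, was favoured in that direction.

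**Figure D1:**
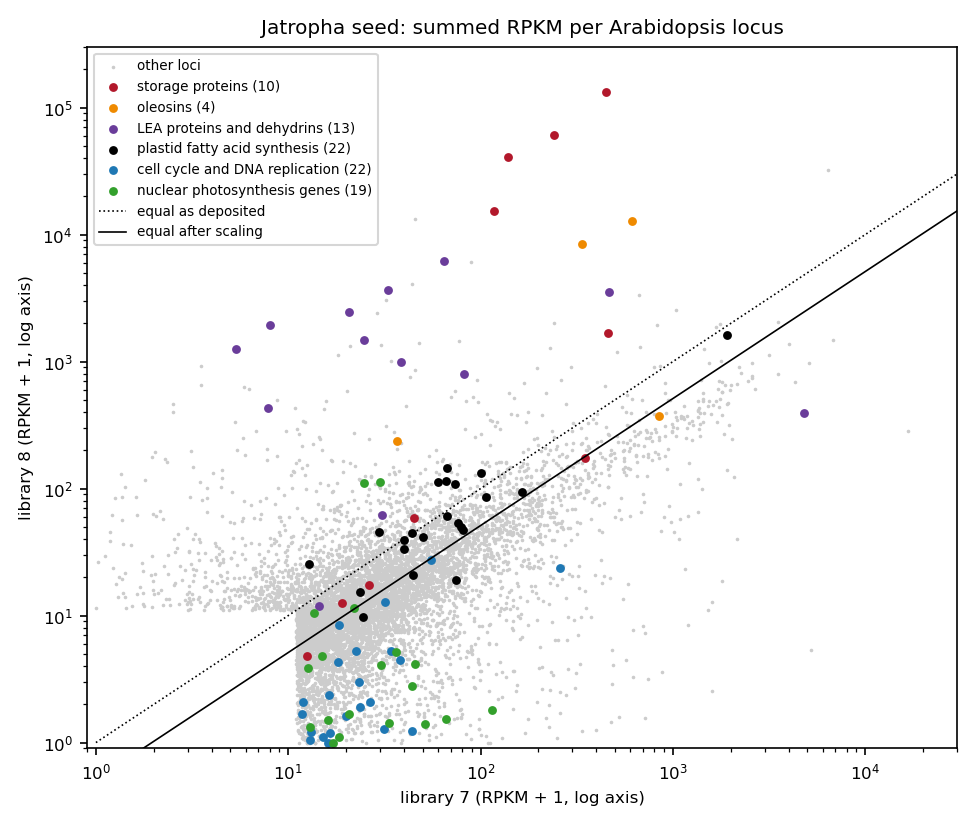
Summed RPKM plus 1 of each compared locus in library 7 (horizontal, log axis) and library 8 (vertical, log axis), with members of 6 gene lists in colour, the number compared in brackets, and lines of equality as deposited and after scaling. Some storage protein, oleosin and LEA loci reach 1000 RPKM or more in library 8, while cell cycle and photosynthesis loci lie below both lines for the most part.

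Of the gene lists described here, the seed storage proteins differed most in their share of the RPKM of contigs with a locus code. The 12S globulins, 2S albumins and 7S vicilin-like proteins are the nitrogen reserves that a seedling uses. Together their 13 listed codes, of which 10 were compared, held 0.288% of the RPKM of all loci in library 7 and 38.2% in library 8. These shares do not depend on the scaling. Of the 10 compared loci 6 exceeded library 7 by 2-fold or more in library 8 and none was lower after scaling. As deposited 5 were higher, and the vicilin-like AT2G18540 was lower.

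The 12S globulin code AT5G44120 (CRA1, a cruciferin of Arabidopsis) had 447.34 RPKM in library 7 and 133634.27 RPKM in library 8. That is a log2 difference of 9.19, the highest of the loci compared. Its sum came from 8 contigs, of which comp17433_c0 had 306.03 and 99180.6 RPKM and comp27581_c0 91.01 and 26589.79 RPKM. The 4 contigs with 810.51 RPKM or more in library 8 differed by log2 values of 9.02 to 9.37, and the remaining 4 had 49.88 RPKM or less there. A second 12S code, AT1G03890, rested on 1 contig with 137.92 RPKM in library 7 and 40509.84 RPKM in library 8, a log2 difference of 9.16. The codes AT1G03880 (CRB) and AT4G28520 (CRC) were low in both libraries. CRB had 17.96 and 11.51 RPKM in libraries 7 and 8, and CRC had 44.17 and 57.71 RPKM. CRC was thus higher after scaling, by a log2 difference of 1.33, but within 2-fold as deposited, and nearly all 12S signal lay on the other 2 codes. Reads of near-identical copies may have been split or merged between contigs, so the levels of single copies are uncertain.

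Among the 2S albumins, small sulfur-rich storage proteins, AT4G27140 (SESA1) had 240.08 RPKM in library 7 and 60525.69 RPKM in library 8, a log2 difference of 8.94. The other code with a contig, AT4G27160 (SESA3), had 25.25 and 16.3 RPKM. The vicilin-like AT3G22640 (PAP85) had 116.45 RPKM in library 7 and 15361.16 RPKM in library 8, a log2 difference of 8.0, and 1 of its 6 contigs, comp27584_c0, held 15275.46 RPKM of that. A second vicilin-like cupin, AT2G28490, differed less, with 460.5 and 1676.28 RPKM, or a log2 difference of 2.83. Another, AT4G36700, had 349.93 and 174.65 RPKM, which is a log2 difference of -0.04. The vicilin-like members thus ranged from no 2-fold difference to a log2 difference of 8.0.

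The enzymes that fold and cut storage proteins were compared at 4 of 7 listed codes, with 2 higher and none lower in library 8 after scaling, against 1 higher and 1 lower as deposited. The vacuolar processing enzyme AT1G62710 (beta-VPE), which cuts 12S and 2S precursors in Arabidopsis seeds, had 239.43 RPKM in library 7 and 1998.6 RPKM in library 8, a log2 difference of 4.02. The sorting receptor AT3G52850 (VSR1) differed by 1.12 after scaling and by 0.17 as deposited. The protein disulfide isomerase AT1G21750 was the most abundant of the 4 in library 7, at 755.5 RPKM against 254.66 RPKM in library 8, and differed by -0.60.

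**Figure D2:**
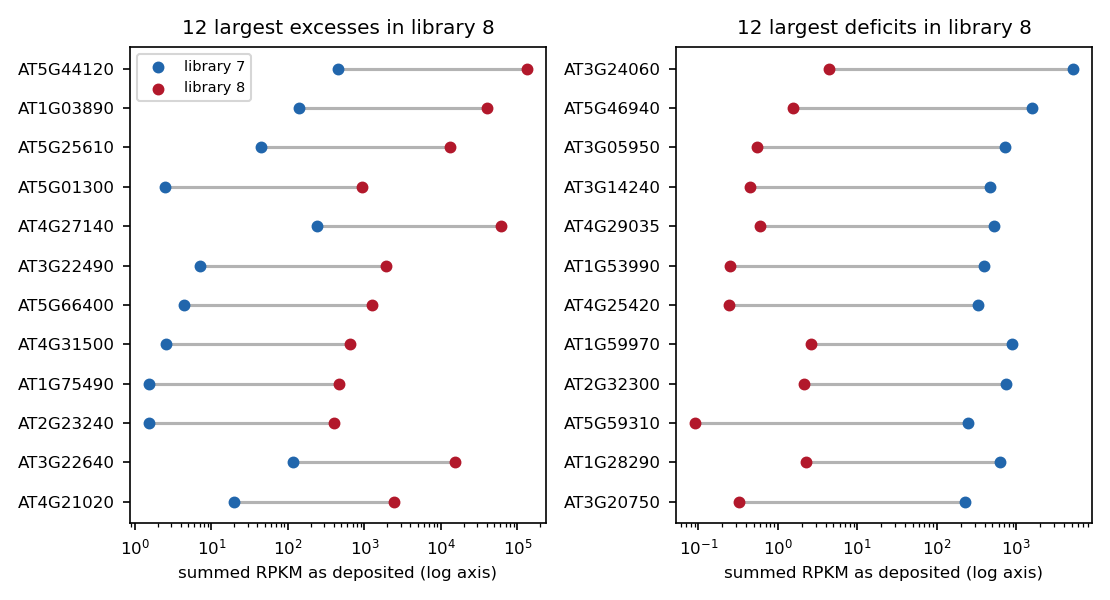
Summed RPKM as deposited (log axis) in library 7 (blue) and library 8 (red) of the 12 loci with the largest excess (left) and the 12 with the largest deficit (right) in library 8. The excesses run from AT5G44120 to AT4G21020 and the deficits from AT3G24060 to AT3G20750.

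Oil body proteins followed the storage proteins at the abundant codes. Oleosins had 5 of 8 codes with a contig, and 3 of the 4 compared were higher in library 8 and none lower after scaling. They held 0.286% of the locus RPKM in library 7 and 3.30% in library 8. The 2 most abundant of library 8 differed by similar amounts. AT5G40420 (OLE2) had 614.55 RPKM in library 7 and 12819.61 RPKM in library 8, a log2 difference of 5.35. AT4G25140 (OLE1) had 335.07 and 8357.51 RPKM, which is a log2 difference of 5.60. The less abundant code AT2G25890 showed 35.74 RPKM in library 7 against 235.0 RPKM in library 8, a log2 difference of 3.65. The order was different for AT3G18570, the most abundant oleosin code of library 7 at 844.22 RPKM, which had 372.64 RPKM in library 8, a log2 difference of -0.21 after scaling and -1.18 as deposited.

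Of the other lipid droplet proteins 7 of 12 codes were compared, and 5 were higher and none lower in library 8 after scaling, against 4 higher and 1 lower as deposited. The caleosin AT4G26740 (CLO1), a calcium-binding oil body protein, had 96.08 and 482.14 RPKM in libraries 7 and 8, a log2 difference of 3.28. The steroleosin code AT5G50700 had 8.53 and 87.85 RPKM, a log2 difference of 4.18. SEIPIN1 (AT5G16460), which shapes oil bodies as they form, had 47.62 and 132.31 RPKM, a log2 difference of 2.42, and the droplet-associated LDAP3 (AT3G05500) had 58.44 and 161.84 RPKM, also 2.42. LDAP1 (AT1G67360) differed by 0.62 and LDIP (AT5G16550) by -0.30.

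The enzymes that make fatty acids and oil had list medians under 1, against 4.50 for the oleosins, and the difference between the lists was not tested. Plastid fatty acid synthesis was compared at 22 of 36 codes, of which 7 were higher, 1 lower and 14 within 2-fold. The median was 0.72 after scaling but -0.24 as deposited, where 1 was higher and 3 lower, so its sign depended on the scaling. The list held 0.503% of the locus RPKM in library 7 and 0.441% in library 8. Acyl carrier protein, the carrier of the growing chain, made up most of it: ACP2 (AT1G54580) had 1913.88 RPKM in library 7 and 1627.18 RPKM in library 8, a log2 difference of 0.73.

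The most abundant members that differed 2-fold after scaling were a desaturase, a regulator, an acetyl-CoA carboxylase subunit and a thioesterase. The acyl-ACP desaturase AAD5 (AT3G02630), of the family that puts the first double bond into stearate, had 66.2 and 143.58 RPKM in libraries 7 and 8, a log2 difference of 2.07. BADC1 (AT3G56130), an inhibitory homologue of the biotin carrier of acetyl-CoA carboxylase, had 99.24 and 131.89 RPKM, which is a log2 difference of 1.37. The carboxyltransferase subunit CAC3 (AT2G38040) had 65.45 and 114.09 RPKM, a log2 difference of 1.75, while the biotin carrier BCCP1 (AT5G16390) had 162.94 and 93.75 RPKM, a difference of 0.17. FATA1 (AT3G25110), the thioesterase that releases oleate, had 59.01 and 112.11 RPKM, a log2 difference of 1.88, against 0.64 for the stearoyl-ACP desaturase FAB2 (AT2G43710). The dehydratase HAD1 (AT5G10160) was the only member 2-fold lower after scaling, at 73.72 RPKM in library 7 against 18.05 RPKM in library 8, a log2 difference of -1.04. As deposited AAD5 was still 2-fold higher, at 1.105, while BADC1, CAC3 and FATA1 were within 2-fold, at 0.41, 0.79 and 0.91.

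Oil assembly was compared at 13 of 22 codes, with 5 higher, 1 lower and a median of 0.82 after scaling, and 3 higher, 2 lower and a median of -0.10 as deposited. The acyltransferase DGAT3 (AT1G48300), named for the last step of triacylglycerol synthesis, had 23.57 RPKM in library 7 and 44.97 RPKM in library 8, a log2 difference of 1.86. PDAT2 (AT3G44830), a phospholipid-dependent acyltransferase, had 1.19 and 15.02 RPKM, a log2 difference of 3.79, while DGAT2 (AT3G51520) had 12.78 and 8.0 RPKM, a difference of 0.27. DGAT1 (AT2G19450) stayed under the limit with 3.41 and 5.46 RPKM. Long-chain acyl-CoA synthetases went both ways. LACS4 (AT4G23850) had 12.25 and 31.52 RPKM and LACS8 (AT2G04350) 2.44 and 26.51 RPKM, log2 differences of 2.24 and 3.94, whereas LACS9 (AT1G77590) had 42.22 and 10.01 RPKM, a log2 difference of -1.07. FAD2 (AT3G12120), which converts oleate to linoleate, was the most abundant code of the list at 302.45 RPKM in library 7 and 226.21 RPKM in library 8, a log2 difference of 0.55.

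The transcription factors of seed development differed in both directions, as did all compared loci, with 15.7% higher and 23.6% lower after scaling. Of 15 listed codes 9 were compared, with 3 higher, 2 lower and a median of 0.08 after scaling, and 1 higher, 4 lower and a median of -0.86 as deposited. LEC1-LIKE (AT5G47670), a subunit of an embryo NF-Y complex, had 535.19 RPKM in library 7 and 57.03 RPKM in library 8, a log2 difference of -2.25. LEC2 (AT1G28300), a B3 factor of early embryo development, had 21.25 and 0.19 RPKM, a log2 difference of -4.02. ABI3 (AT3G24650) and ABI5 (AT2G36270), factors of abscisic acid response and late maturation, had 35.46 and 76.85 RPKM and 41.94 and 68.78 RPKM, log2 differences of 2.05 and 1.66. VAL1 (AT2G30470), a repressor of the embryo programme in seedlings, differed by 1.81. As deposited ABI3 was still 2-fold higher, at 1.09, while ABI5 and VAL1 were within 2-fold, at 0.70 and 0.88. WRI1 (AT3G54320), the activator of glycolysis and fatty acid genes, had 124.37 RPKM in library 7 and 47.85 RPKM in library 8, a log2 difference of -0.41 after scaling and -1.36 as deposited.

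Transcripts of desiccation tolerance were the group with the highest median. LEA (late embryogenesis abundant) proteins and dehydrins protect cells in the dry seed. They were compared at 13 of 25 codes, of which 11 were higher and 1 lower in library 8 under both scalings, with medians of 6.73 after scaling and 5.76 as deposited. LEA4-5 (AT5G06760) had 63.33 RPKM in library 7 and 6179.26 RPKM in library 8, a log2 difference of 7.55. The LEA code AT5G44310 had 32.0 and 3628.15 RPKM, a log2 difference of 7.75, and AT2G36640 (ECP63) 463.03 and 3529.04 RPKM, a difference of 3.89. RAB18 (AT5G66400), an abscisic acid-induced dehydrin, had 4.32 and 1258.86 RPKM, a log2 difference of 8.85. EM6 (AT2G40170) and EM1 (AT3G51810), a pair of group 1 LEA proteins, had 23.88 and 1465.4 RPKM and 37.4 and 997.64 RPKM, log2 differences of 6.85 and 5.67. These members were at 463.03 RPKM or less in library 7 and at 997.64 RPKM or more in library 8. One dehydrin went the other way: ERD14 (AT1G76180), which Arabidopsis also makes in vegetative tissue, had 4814.92 RPKM in library 7 and 393.09 RPKM in library 8, a log2 difference of -2.65.

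Transcripts for the synthesis of protective sugars and for chaperones were also higher in library 8. All 5 codes of raffinose and inositol synthesis that had a contig, of 8 listed, were higher in library 8 under both scalings. Galactinol synthase GOLS1 (AT2G47180) had 22.35 and 117.04 RPKM in libraries 7 and 8, a log2 difference of 3.30, and GOLS2 (AT1G56600) 7.84 and 100.4 RPKM, a difference of 4.48. Raffinose synthase RS5 (AT5G40390) had 4.08 and 92.63 RPKM, a log2 difference of 5.16, and the inositol phosphate synthase MIPS2 (AT2G22240) 90.17 and 520.46 RPKM, a difference of 3.48. Of the small heat shock proteins, HSP101 and HSFA9, 7 of 12 codes were compared and 7 were higher after scaling, 5 as deposited. The cytosolic class I code AT5G59720 had 75.92 and 1453.62 RPKM, a log2 difference of 5.21, and the endoplasmic reticulum code AT4G10250 had 10.32 and 270.09 RPKM, a difference of 5.55. The chaperone HSP101 (AT1G74310) differed by 2.32, from 21.74 RPKM in library 7 to 57.41 RPKM in library 8. No contig carried the code of HSFA9.

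Among abscisic acid genes 5 of 13 codes were compared, with 2 higher and 1 lower in library 8 after scaling, against 2 higher and 2 lower as deposited. The synthesis enzymes NCED6 (AT3G24220) and AAO3 (AT2G27150) had 0.23 and 22.74 RPKM and 3.38 and 29.74 RPKM in libraries 7 and 8, log2 differences of 5.21 and 3.76. The breakdown enzyme CYP707A4 (AT3G19270) had 15.19 and 2.73 RPKM, a log2 difference of -1.35, while CYP707A2 (AT2G29090), under the limit, had 0.1 and 8.5 RPKM.

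Oil breakdown genes were compared at 15 of 19 codes, with 7 higher, 1 lower and a median of 0.47 after scaling and -0.46 as deposited. As deposited 2 were higher and 4 lower. The 2 higher under both scalings were the enzymes that define the glyoxylate cycle, which turns acetyl-CoA from oil into sugar precursors. Malate synthase (AT5G03860) had 7.78 RPKM in library 7 and 494.59 RPKM in library 8, a log2 difference of 6.78. Isocitrate lyase (AT3G21720) had 2.49 and 112.44 RPKM, which is a log2 difference of 5.98. Other enzymes of the list differed less, with 0.40 for citrate synthase CSY2 (AT3G58750) and 1.71 and -0.12 for the malate dehydrogenases PMDH1 (AT2G22780) and PMDH2 (AT5G09660). The beta-oxidation protein MFP2 (AT3G06860) had 47.71 and 77.85 RPKM, a log2 difference of 1.65, and its relative AIM1 (AT4G29010) 34.58 and 3.79 RPKM, a difference of -2.08. The lipase SDP1 (AT5G04040) differed by 1.47.

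**Figure D3:**
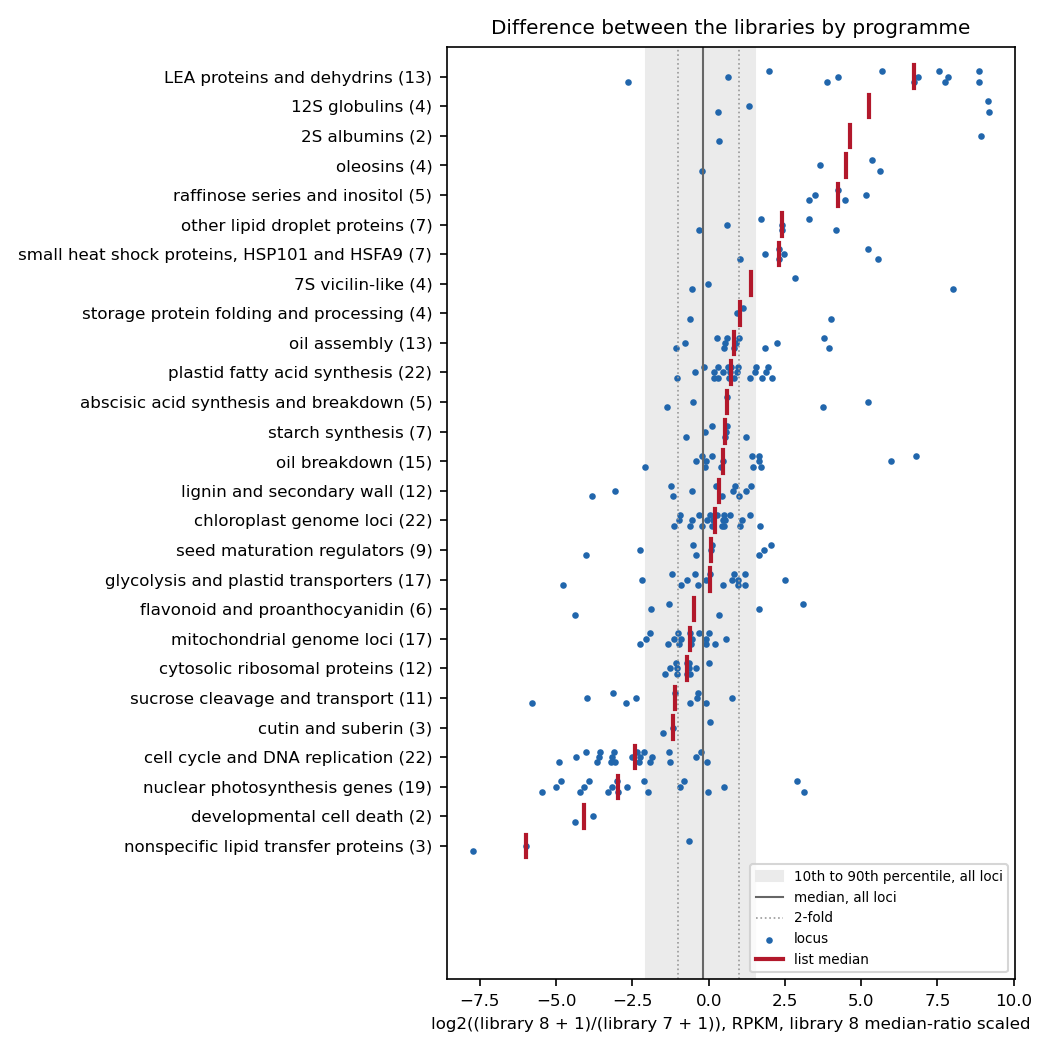
Log2 difference between library 8 (scaled) and library 7 for each compared locus (blue points) of 27 gene lists, the number compared in brackets, with the list median (red), the median of all compared loci (grey line) and their 10th to 90th percentile (grey band, -2.05 to 1.53). The 12S, 2S, oleosin and LEA lists have medians between 4.50 and 6.73, and the cell cycle and photosynthesis lists have medians of -2.43 and -2.98.

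The compared cell division genes were lower in library 8 for the most part, but most of them reached the limit of 10 RPKM in library 7 only. The limit thus favoured that direction. The codes that reached it in library 8 as well were the histone AT5G65360 and CDKA;1, described below, and the kinase AUR1 (AT4G32830). AUR1 had 30.98 and 11.84 RPKM, a log2 difference of -0.41. Of 39 codes 31 had a contig and 22 were compared, of which 19 were at least 2-fold lower and none higher after scaling. As deposited the 22 were all lower. The median was -2.43 after scaling and -3.26 as deposited, and of the 9 codes under the limit 7 were also lower in library 8 after scaling and 2 higher. The replication-coupled histone H3 code AT5G65360 had 257.81 RPKM in library 7 and 22.68 RPKM in library 8, a log2 difference of -2.51. KNOLLE (AT1G08560), the syntaxin of the dividing cell plate, had 42.76 and 0.24 RPKM, a log2 difference of -4.90. Genes of the S phase and of mitosis were both among the lower ones. The replication clamp PCNA2 (AT2G29570) had 37.07 and 3.5 RPKM, a difference of -2.28, and ribonucleotide reductase TSO2 (AT3G27060) 33.13 and 4.29 RPKM, a difference of -1.86. Cyclin CYCD3;1 (AT4G34160) had 30.39 and 0.27 RPKM, a log2 difference of -4.36, and the mitotic cyclin CYCA1;1 (AT1G44110) had 15.09 RPKM in library 7 and was listed at 0 in library 8. The kinase CDKA;1 (AT3G48750), present through the cell cycle, had 54.33 and 26.47 RPKM, a log2 difference of -0.07.

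Nuclear genes of photosynthesis were compared at 19 of 52 codes, with 13 lower, 2 higher and a median of -2.98 after scaling and -3.42 as deposited. The 15 codes under the limit included 12 lower and 3 higher in library 8 after scaling. No member exceeded 113.21 RPKM in either library. That value belonged to the oxygen-evolving protein PSBO2 (AT3G50820) in library 7, which had 0.81 RPKM in library 8, a log2 difference of -5.47. The photosystem I subunit PSAH2 (AT1G52230) had 65.34 and 0.54 RPKM, a log2 difference of -5.01, and the antenna protein LHCB6 (AT1G15820) 50.49 and 0.41 RPKM, a difference of -4.84. The photosystem I subunit PSAL (AT4G12800) had 16.14 RPKM in library 7 and was listed at 0 in library 8. The 2 higher codes were both of carbon fixation. The Rubisco small subunit RBCS1A (AT1G67090) had 23.74 and 109.97 RPKM, a log2 difference of 3.13, with 1 of its 2 contigs on that side. Phosphoribulokinase (AT1G32060) had 28.93 and 112.13 RPKM, a difference of 2.88. Other carbon fixation codes, under the limit, were split after scaling. RBCS3B (AT5G38410) had 2.75 and 0 RPKM, SBPASE (AT3G55800) 2.82 and 0.62 RPKM and CFBP1 (AT3G54050) 2.09 and 0.32 RPKM, each lower. Rubisco activase (AT2G39730) had 5.59 and 5.27 RPKM, which is higher after scaling.

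Genes of sucrose cleavage and transport were lower in library 8 at 6 codes. Of 22 codes 11 were compared, with 6 lower, none higher and a median of -1.12 after scaling, and 10 lower with a median of -1.99 as deposited. Of the 5 codes under the limit 4 were higher and 1 lower after scaling. The cell wall invertase AT3G52600 (CWINV2), which cleaves sucrose outside the cell, had 227.63 RPKM in library 7 and 1.59 RPKM in library 8, a log2 difference of -5.80. Sucrose synthase SUS4 (AT3G43190) had 146.82 and 8.07 RPKM, a log2 difference of -3.14, while SUS2 (AT5G49190) had 99.59 and 48.12 RPKM, a difference of -0.08. The vacuolar invertase AT1G12240 had 40.27 and 3.56 RPKM, a log2 difference of -2.38, and the sucrose exporter SWEET12 (AT5G23660) 26.89 and 0.38 RPKM, a difference of -4.0. The cytosolic invertase CINV2 (AT4G09510) was within 2-fold after scaling, at 42.68 and 16.88 RPKM and a difference of -0.36. Each of the 6 lower codes reached the limit of 10 RPKM in library 7 only, so the limit favoured that direction. The codes that reached it in library 8 as well were SUS2, CINV2, SUS3 (AT4G02280) and SUC2 (AT1G22710). All of these were within 2-fold after scaling.

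Glycolysis was mixed after scaling, with 3 of the 17 compared codes higher, 3 lower and a median of 0.05. Over all compared loci 15.7% were higher and 23.6% lower. As deposited 1 was higher and 8 lower, with a median of -0.91. Phosphoglycerate kinase AT1G79550 had 412.39 and 46.06 RPKM in libraries 7 and 8, a log2 difference of -2.18, and the cytosolic dehydrogenase code AT1G13440 (GAPC2) 109.69 and 1.56 RPKM, a difference of -4.77. Its sister code AT3G04120 (GAPC1) carried most of that enzyme's signal, at 1745.2 RPKM in library 7 against 698.85 RPKM in library 8, a log2 difference of -0.35. The remaining lower code was the plastid phosphoglycerate kinase PGK1 (AT3G12780), with 21.43 and 4.43 RPKM and a difference of -1.22. The 3 higher codes were also plastid members, while other plastid members were within 2-fold. The pyruvate kinase subunit AT1G32440 had 8.83 and 28.25 RPKM, a log2 difference of 2.52, and the phosphoenolpyruvate importer PPT1 (AT5G33320) 19.33 and 23.46 RPKM, a difference of 1.21. Triose phosphate isomerase (AT2G21170) differed by 1.19, and as deposited it and PPT1 were within 2-fold. Starch synthesis had 1 of 7 compared codes higher and none lower, and the other 6 within 2-fold after scaling, but as deposited none was higher and 1 lower. The code higher after scaling was the ADP-glucose pyrophosphorylase subunit APL3 (AT4G39210), at 14.15 RPKM in library 7 against 17.57 RPKM in library 8, a log2 difference of 1.22 after scaling and 0.29 as deposited. The code lower as deposited was the starch synthase SS4 (AT4G18240), by -1.71, against -0.75 after scaling.

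Cytosolic ribosomal proteins, the protein part of the translation machinery, were abundant in both libraries. Of 23 listed codes 12 were compared, with 5 lower, none higher and a median of -0.72 after scaling, and 11 lower with a median of -1.68 as deposited. The list held 1.88% of the locus RPKM in library 7 and 0.552% in library 8. RPS6B (AT5G10360) had 2159.59 and 669.01 RPKM, a log2 difference of -0.72, and RPL3A (AT1G43170) 1251.29 and 238.6 RPKM, a difference of -1.42. The differences of 11 of 12 codes lie below the median of all loci.

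**Figure D4:**
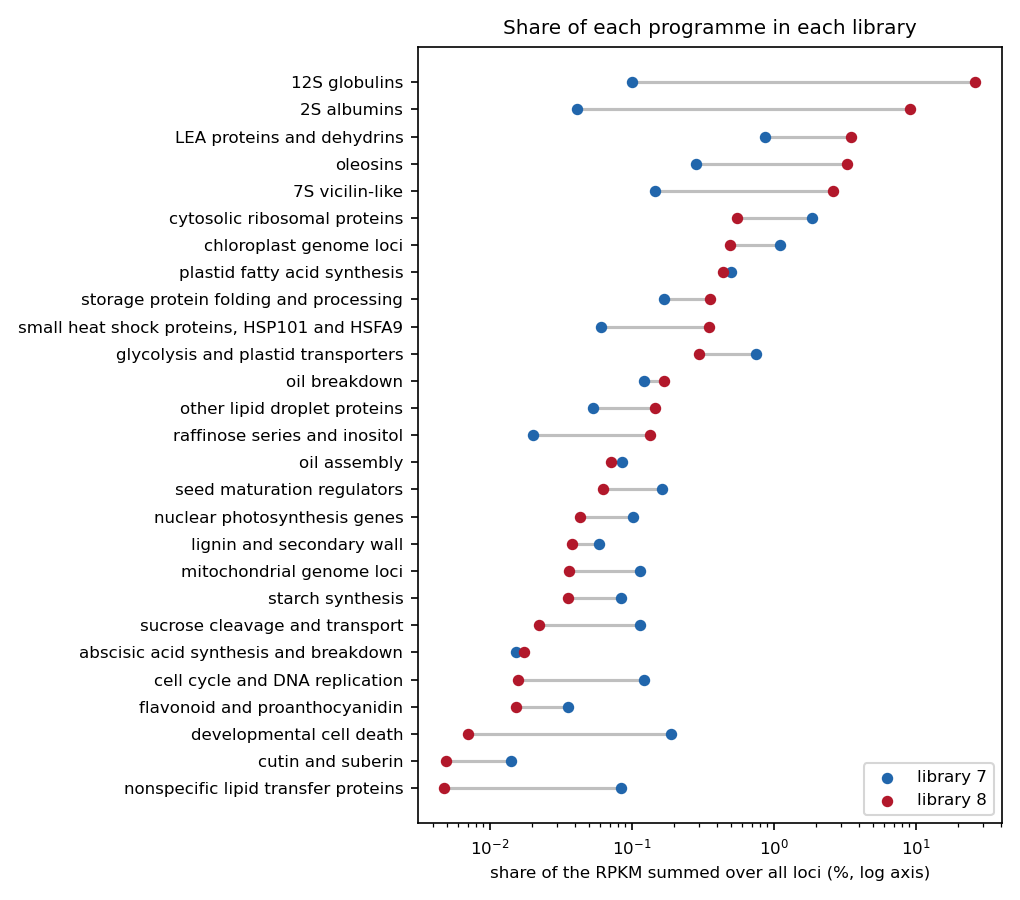
Share of the RPKM summed over all loci (percent, log axis) that each gene list held in library 7 (blue) and library 8 (red), all codes with a contig included. The 12S globulins go from 0.101% in library 7 to 26.4% in library 8, and the cell cycle list from 0.123% to 0.0157%.

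The extremes of the whole ranking also held genes outside these lists. Next to the 12S codes ranked AT5G25610 (RD22, a dehydration-responsive BURP protein), at 44.65 RPKM in library 7 and 13273.89 RPKM in library 8, a log2 difference of 9.15. AT5G01300, of the phosphatidylethanolamine-binding family, had 2.5 and 923.96 RPKM, which is a log2 difference of 9.01. The seed maturation protein AT3G22490, counted in the LEA list above, had 7.06 and 1925.98 RPKM, a log2 difference of 8.87. AT4G31500, a cytochrome P450 known from glucosinolate synthesis in Arabidopsis, had 2.52 and 647.58 RPKM, a log2 difference of 8.49. AT1G75490, a DREB-type transcription factor, had 1.53 and 461.99 RPKM, a difference of 8.48, and the seed-type metallothionein AT2G23240 had 1.52 and 401.64 RPKM, a difference of 8.29. Of the 12 largest excesses 7 were storage or LEA-type proteins, namely AT5G44120, AT1G03890, AT4G27140, AT3G22640, AT3G22490, AT5G66400 and AT4G21020.

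The largest deficits included secreted proteins and proteins of the cell wall. AT3G24060, of the S-protein homologue family of small secreted proteins, had 5200.83 RPKM in library 7 and 4.35 RPKM in library 8, a log2 difference of -9.10, with 3 of 3 contigs lower. The family was represented again lower in the ranking. A second code of it, AT4G29035, had 524.4 and 0.6 RPKM over 4 contigs, a log2 difference of -7.92. AT5G46940, of the invertase and pectin methylesterase inhibitor family, had 1598.38 and 1.53 RPKM, a difference of -8.65. The germin-like AT3G05950 had 718.11 and 0.55 RPKM, which is a log2 difference of -8.44, the subtilase AT3G14240 had 472.81 and 0.44 RPKM, a difference of -7.99, and the GDSL lipase AT1G53990 had 395.61 and 0.25 RPKM, a difference of -8.06.

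AT4G25420 (GA20OX1, a gibberellin synthesis enzyme) had 334.68 RPKM in library 7 and 0.24 RPKM in library 8, a log2 difference of -7.84. The matrix metalloproteinase AT1G59970 had 879.32 and 2.59 RPKM, the uclacyanin AT2G32300 739.77 and 2.14 RPKM and the arabinogalactan protein AT1G28290 620.66 and 2.29 RPKM, log2 differences of -7.18, -7.16 and -6.83. These are, respectively, a secreted protease and a pair of cell surface proteins. AT3G20750, a GATA transcription factor, had 225.64 and 0.32 RPKM, a difference of -7.12. After scaling AT1G28290 left the 12 largest deficits and the glutamate dehydrogenase AT5G18170 entered, with 168.79 and 0.2 RPKM, or a log2 difference of -6.93. The lipid transfer protein LTP4 (AT5G59310) had 249.15 and 0.09 RPKM, a difference of -7.73. It was 1 of 2 lower codes among the 3 compared of 8 listed lipid transfer proteins. The other was DIR1 (AT5G48485), with 194.72 and 1.08 RPKM and a difference of -5.98.

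Abundant loci changed places between the libraries, and the signal on locus codes was more concentrated in library 8. Contigs without a code are left out here. They held 41.9% of the RPKM in library 7 and 19.3% in library 8. The most abundant of them, comp32507_c0, had 277426 RPKM in library 7, above any locus. The 10 most abundant loci held 9.41% of the locus RPKM in library 7 and 49.9% in library 8. Among loci, library 7 was led by the cystatin AT5G47550, a protease inhibitor, with 16728.98 RPKM against 284.1 RPKM in library 8. That is a log2 difference of -4.91, and 1 of the 2 contigs of this code was on the side of the sum. Ribosomal protein codes followed, among them AT4G14320 with 6837.52 and 1488.41 RPKM, AT3G02560 with 4287.26 and 687.53 RPKM and AT5G56670 with 3504.48 and 792.5 RPKM. Each of these ribosomal codes was higher in library 7. The lipid transfer-type AT4G30880 had 5084.58 and 973.41 RPKM and the oxidoreductase AT1G54870 3991.96 and 1379.77 RPKM. The translationally controlled tumour protein homologue AT3G16640 had 3514.96 and 2049.56 RPKM, a log2 difference of 0.19. Only the metallothionein AT3G09390 (MT2A) was among the 10 most abundant in both, with 6394.66 RPKM in library 7 and 32296.31 RPKM in library 8, a log2 difference of 3.30. The loci that led library 8 were storage proteins, MT2A, RD22, oleosins and LEA4-5, all described above. There the dehydrin AT2G21490 also ranked among the first 10, with 6074.75 RPKM against 88.01 RPKM in library 7.

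The compared markers of seed tissues were lower in library 8, but each of them reached the limit of 10 RPKM in library 7 only. The limit thus favoured that direction. The part of the markers in the differences above was not tested, and their summed levels below are as deposited. In a mixed seed sample fewer cells of a type and less RNA per cell cannot be told apart. Of 9 seed coat codes 6 had a contig, with a summed level of 148.66 RPKM in library 7 and 6.98 RPKM in library 8. Among the 3 under the limit 1 was higher and 2 lower in library 8 after scaling. The MADS factors AT5G23260 (TT16) and AT4G09960 (STK), of the integuments and seed coat, had 91.5 and 1.76 RPKM and 32.37 and 0.71 RPKM, log2 differences of -4.38 and -3.80. These factors were near the bottom of the scale in library 8. TT2 (AT5G35550) was listed at 0 in library 8. Of 10 endosperm codes 3 had a contig, with a summed level of 61.1 RPKM in library 7 and 6.15 RPKM in library 8. ZHOUPI (AT1G49770), a factor of endosperm breakdown, had 37.92 and 3.09 RPKM, a log2 difference of -2.47, and AGL62 (AT5G60440), a factor of early endosperm, had 6.77 and 2.2 RPKM. For the labelled source, endosperm, 7 of 10 listed markers thus had no contig, and the list holds mostly genes of early Arabidopsis endosperm. Of 13 embryo codes 6 had a contig, summing to 39.72 and 12.25 RPKM, and among its 4 codes under the limit 3 were higher and 1 lower in library 8 after scaling. The shoot meristem factor STM (AT1G62360) had 4.62 and 4.09 RPKM, and CUC3 (AT1G76420) had 15.06 and 1.03 RPKM, a log2 difference of -2.41.

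Of 12 codes of developmental cell death 8 had a contig and 2, both of proteases, were compared and were lower in library 8. Among the 6 codes under the limit 3 were higher and 3 lower after scaling. The cysteine protease CEP1 (AT5G50260), of tissues that undergo developmental cell death, had 1073.25 RPKM in library 7 and 39.43 RPKM in library 8, a log2 difference of -3.78, but 2 of its 6 contigs were on the side of that sum. The carboxypeptidase SCPL48 (AT3G45010) had 119.06 and 2.44 RPKM, a difference of -4.38. Flavonoid genes were split, with 2 of 6 compared codes higher and 3 lower, of 17 listed, and 1 higher and 3 lower as deposited. Of the 8 codes under the limit 2 were higher and 6 lower after scaling. Chalcone isomerase (AT3G55120) had 2.03 and 12.63 RPKM and chalcone synthase (AT5G13930) 40.41 and 65.52 RPKM, log2 differences of 3.08 and 1.64. Flavanone hydroxylase (AT3G51240) and the proanthocyanidin reductase BANYULS (AT1G61720) had 31.97 and 4.03 RPKM and 18.38 and 3.52 RPKM, differences of -1.89 and -1.30. The third lower code was TT16, and both TT16 and BANYULS are also on the seed coat list.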

How the data were processed

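The authors deposited RPKM values of assembled Jatropha contigs, with an Arabidopsis (TAIR10) locus code for 22599 of 45411 contigs, per the file headers and the table's name. The submitters' processing notes name Bowtie and edgeR, with no role or version. Assembler, counting and filters: not given in the sources used here. Read totals are unknown, so no counting error could be given. Per the labels, polyadenylated RNA went into directional libraries.

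RPKM were summed per locus, loci reaching 10 RPKM in library 7 or library 8 were kept, library 8 was divided by the median ratio over loci with at least 1 RPKM in both, and log2 differences were taken with a pseudocount of 1 RPKM, which understates low loci. Called means at least 2-fold. There was no test. Lists and members were chosen with earlier results of these data known, and codes were assigned to lists from general knowledge, with no table to check them against. Named loci are the 12 at each end of the ranking, the 10 most abundant per library, and up to 4 abundant 2-fold members, and those of opposite direction, of each list. Further members were named after their values were seen. No column was left unused (0). The Vernicia table was not used here. Alternatives were other scalings, limits, pseudocounts and the most abundant contig per locus. The steps were tested on simulated data (Python 3.11.15, pandas 2.3.3, NumPy 2.4.6). There few loci changed, and equally in both directions. In these data many loci differed, more of them lower than higher, so the simulation could not check the scaling under such an imbalance.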

Additional observations from a re-analysis of the deposited data

Results flagged for a closer look

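Contigs without a locus code lie outside the comparison of loci, yet held 41.9% of the RPKM in library 7 and 19.3% in library 8. Of the 1469 such contigs that reached 10 RPKM in library 7 or library 8, 318 (21.6%) exceeded library 7 by 2-fold or more after the scaling of the loci, and 572 (38.9%) fell short of it by that factor, against 15.7% and 23.6% of loci. The most abundant, comp32507_c0, had 277426 RPKM in library 7 and 23734.77 RPKM in library 8, a log2 difference of -2.58. Contig comp25767_c1 had 23067.46 and 50.93 RPKM, a difference of -7.84, and comp27583_c0 had 106.63 and 22054.38 RPKM, a difference of 8.65. Their identity: not given in the sources used here.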

How the results depend on the processing

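As deposited, without scaling, 597 loci were higher and 4320 lower in library 8, against 1259 and 1894. With a limit of 1 RPKM 2203 were higher, where more loci enter, with 50 RPKM 423 were higher and 617 lower, and at 4-fold 570 were higher and 838 lower. Pseudocounts of 0.1 and 5 RPKM, trimmed mean scaling, equal totals without the top 100 loci and the use of the most abundant contig per locus kept both counts within 1.5 times. The medians of the 30 lists (markers included) moved by less than 1.5 times under trimmed mean scaling and equal totals. As deposited 26 moved by more, since the shared shift of -0.97 is then kept, with a pseudocount of 5 RPKM 8 did, with limits of 1 and 50 RPKM 9 and 10 did, and with the most abundant contig 5 did. Of the 30 lists, 27 kept a compared locus at 50 RPKM. No list median of at least 2-fold changed sign under any of these. Of 128 named loci, 1 at least 2-fold apart changed sign: the lignin gene code AT4G36220 was -2.65 by its most abundant contig and 1.22 by the sum. The cause was not tested. No paired analysis was possible because the columns carry no replicate number and no result comes from a test. Codes listed at 0 or under the limit give differences that depend on the pseudocount.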

Other observations

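Codes of the organelle genomes, in RNA selected for poly(A) tails, had medians of 0.20 for the chloroplast and -0.61 for the mitochondrion after scaling. Of 39 chloroplast codes 22 were compared, with 4 higher and 1 lower in library 8 after scaling, against 15.7% and 23.6% of all compared loci. The median was 0.20 after scaling and -0.71 as deposited, where none was higher and 7 were lower. The ribosomal protein code ATCG00800 was the most abundant at 3177.47 RPKM in library 7 and 1122.31 RPKM in library 8, a log2 difference of -0.53. The photosystem II code ATCG00680 had 299.95 and 325.19 RPKM, a difference of 1.08, while the photosystem I code ATCG00340 had 297.93 and 68.65 RPKM, a difference of -1.15. Of 36 mitochondrial codes 17 were compared, with none higher and 6 lower after scaling, and 13 lower with a median of -1.57 as deposited. The lowest were ATMG00860, at 14.43 and 1.15 RPKM, and ATMG01320, at 47.67 and 5.47 RPKM, with log2 differences of -2.25 and -2.06.

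Lignin and secondary wall genes were compared at 12 of 33 codes, with 2 higher, 4 lower and a median of 0.33 after scaling. All compared loci were 15.7% higher and 23.6% lower. As deposited none of the lignin and wall codes was higher and 5 were lower, with a median of -0.61. The 2 higher were cinnamate hydroxylase (AT2G30490), at 20.58 and 28.57 RPKM, and ferulate hydroxylase (AT4G36220), at 21.6 and 26.4 RPKM, with log2 differences of 1.40 and 1.22. The latter changes sign if its most abundant contig alone is used. The lignin transcription factor MYB63 (AT1G79180) had 14.56 RPKM in library 7 and 0.05 RPKM in library 8, a log2 difference of -3.83, and cinnamoyl-CoA reductase (AT1G15950) had 12.34 and 0.3 RPKM, a difference of -3.07. Among the 10 codes under the limit 4 were higher and 6 lower after scaling, and 4 of the lower ones were listed at 0 in library 8: the laccase LAC4 (AT2G38080), the secondary wall cellulose synthase CESA4 (AT5G44030), COBL4 (AT5G15630) and CTL2 (AT3G16920), at 2.72, 1.61, 1.95 and 8.12 RPKM in library 7. Cutin and suberin genes had 3 of 19 codes compared, with 2 lower: the acyltransferase GPAT4 (AT1G01610), at 14.03 and 2.21 RPKM, and the lipid exporter ABCG11 (AT1G17840), at 37.77 and 8.28 RPKM, with log2 differences of -1.50 and -1.17. Of the 7 under the limit 5 were higher and 2 lower after scaling.

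Contigs that share a locus code did not always move together. Of 3371 compared loci with more than 1 contig, 1502 (44.6%) had every contig on the same side of 0 as their sum after scaling. The named codes AT5G47550, AT1G62710, AT5G40420, AT4G31500, AT3G50820 and AT1G67090 were among the others, each with 1 of 2 contigs on that side. AT5G25610 had 2 of 4. RPL3A (AT1G43170), AAD5 (AT3G02630) and CAC3 (AT2G38040) also had 1 of 2, HSP101 (AT1G74310) 1 of 3 and chalcone synthase (AT5G13930) 2 of 5. This list is not complete. For the vicilin-like AT3G22640, comp252955_c0 had 7.56 and 0.36 RPKM in libraries 7 and 8, a log2 difference of -2.33, beside 8.92 for comp27584_c0. Whether such contigs are paralogues, fragments or low-level assembly products was not tested.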
